A study of Homo sapiens with 18 samples.

Results

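The 43 DNA repair and Fanconi genes described here were found by matching their symbols to the Ensembl genes of a count table of 63677 genes, and all 43 were matched. They comprise 11 genes of homologous recombination, 12 of the Fanconi pathway, 5 of DNA end resection and its helicase, 6 of the damage checkpoint, 6 of nucleotide excision repair and 3 of transcription-coupled repair. RNA-seq counted their reads in 18 libraries of NCI-H1299, a human lung cancer line that lacks p53. Every TBX group and both control groups had 3 libraries, with replicates a, b and c. The TBX groups were transiently transfected by lipofection with Flag tagged human TBX2, HA tagged human TBX3, Flag tagged human TBX4 or HA tagged mouse Tbx5, all of them T-box transcription factors. One control group received the empty vector (EV), and the other is labelled Ctl, with no treatment named. All libraries came from cells of passages 12 to 14. Transient transfection reaches only some of the cells of a dish, so each value averages transfected and untransfected cells, and fewer expressing cells cannot be told apart from less RNA per cell. Nothing in the labels says whether replicates were separate cultures, so p-values measure only the spread between these libraries, which may be technical.

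Cells mend DNA by routes that use different proteins for different lesions. Homologous recombination copies an intact sister strand to repair a double-strand break, and the Fanconi pathway unhooks crosslinks between the strands by tagging the FANCD2 and FANCI pair with ubiquitin. Nucleotide excision repair cuts out bulky lesions, such as those of ultraviolet light and cisplatin, and its transcription-coupled branch begins at an RNA polymerase stalled on the lesion. Many of these genes are transcribed most in S and G2 phase, when a sister strand is present.

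The total count of a library ran from 7365221 to 11743179 (median 9167758). The detection floor of 3 counts equalled 0.191 to 0.595 CPM (counts divided by the library total and set to a common depth) after TMM scaling, which sets libraries on a common scale by the bulk of their genes. The gene with the most counts, ENSG00000266658, took 10.7% to 53.5% of a library, with ranges of 30.3% to 40.2% in Ctl, 12.4% to 34.7% in EV, 13.2% to 18.6% with TBX4 and 22.5% to 53.5% with TBX5. Each transfected TBX gene was high in its own libraries, from 128.8 CPM for TBX5, read from mouse transcripts on the human gene, to 25410.7 CPM for TBX3. Between these lay TBX2 at 4086.1 to 4821.2 CPM and TBX4 at 7543.3 to 8497.2 CPM. The paper names pCGN vectors for TBX3 and Tbx5 and pORF vectors for TBX2 and TBX4. Where TBX groups differ, the factor therefore cannot be told apart from the level reached or, for some pairs, from the vector and tag. Outside its own libraries each had at most 119 counts. The title of TBX4 replicate c is numbered like its 2 sister libraries yet names TBX5 at its end, and the library labelled so had 85197 counts on TBX4 and 1 on TBX5. It was taken as TBX4, and the fit without it also called 1 member higher and 4 lower. Markers of leukocytes, endothelium and fibroblasts summed to at most 2.56, 1.01 and 1.79 CPM in any library. Among epithelial markers KRT18 had 43.2 to 75.8 CPM, KRT8 19.3 to 52.7 and KRT7 at most 2.82, while KRT19, EPCAM and CDH1 had at most 2, 3 and 2 counts. Among mesenchymal markers VIM had 691.5 to 969.8 CPM, FN1 34.1 to 56.2, CDH2 20.6 to 31.2 and SPARC at most 0.914. Epithelial markers summed to a mean of 109.0 CPM in the controls against 71.8, 81.7, 94.7 and 114.2 CPM for TBX2 to TBX5. That sum was mostly KRT8 and KRT18, while KRT7 had 0.942 CPM in the controls and 2.38 with TBX2. Mesenchymal markers, mostly VIM, summed to 964.7 CPM in the controls against 797.3, 831.9, 898.7 and 909.1 CPM. Of these, FN1 had 37.4 CPM in the controls and 40.6 to 53 with the TBX plasmids. The part of either list in the members' changes was not tested. Markers of the lung adenocarcinoma lineage, the cell type on the labels, summed to at most 3.67 CPM, with SFTPA2 and SLC34A2 at 0 in every library and NKX2-1 at no more than 4 counts.

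In the 6 controls the members spanned a wide range of levels per kilobase of exon, the only scale on which genes are compared here, as the plot of levels in the controls shows. The highest were TOPBP1, a checkpoint scaffold, at 21.0 ± 0.466 CPM per kb (SD, n = 6), RAD51AP1, which stimulates strand invasion, at 19.4 ± 1.04, and ERCC1, which guides a repair nuclease, at 14.6 ± 0.877. They were followed by UBE2T, the ubiquitin-conjugating enzyme of the Fanconi pathway, at 14.0 ± 1.17, and RBBP8, which starts end resection, at 12.9 ± 0.484. The ranges of TOPBP1 and RAD51AP1 over the 6 controls overlapped between 20.4 and 20.5, and those of ERCC1, UBE2T and RBBP8 overlapped as well. The lowest were FANCF at 0.121 ± 0.0637 CPM per kb, ERCC6 at 0.248 ± 0.0194, RAD51D at 0.256 ± 0.0449, FANCL at 0.496 ± 0.0306 and ERCC8 at 0.537 ± 0.0502. The range of RAD51D overlapped those of FANCF and ERCC6, and the range of FANCL overlapped that of ERCC8. Exon length here counts every annotated exon of a gene, which lowers the value of genes with many annotated isoforms, such as FANCL with 37977 exon bases. It also counts bases shared with another gene, where reads are left out, such as 76.7% of those of XRCC3 and 28.6% of those of ERCC1. The values of such genes are thus too low, and the order of members could differ on unshared exon bases. FANCF, an adaptor of the Fanconi core complex, had 1 to 13 counts per library and was the only member not tested. The other 42 belonged to the 15576 genes tested, which exceeded 5 counts in 10 or more libraries.

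**Figure D1:**
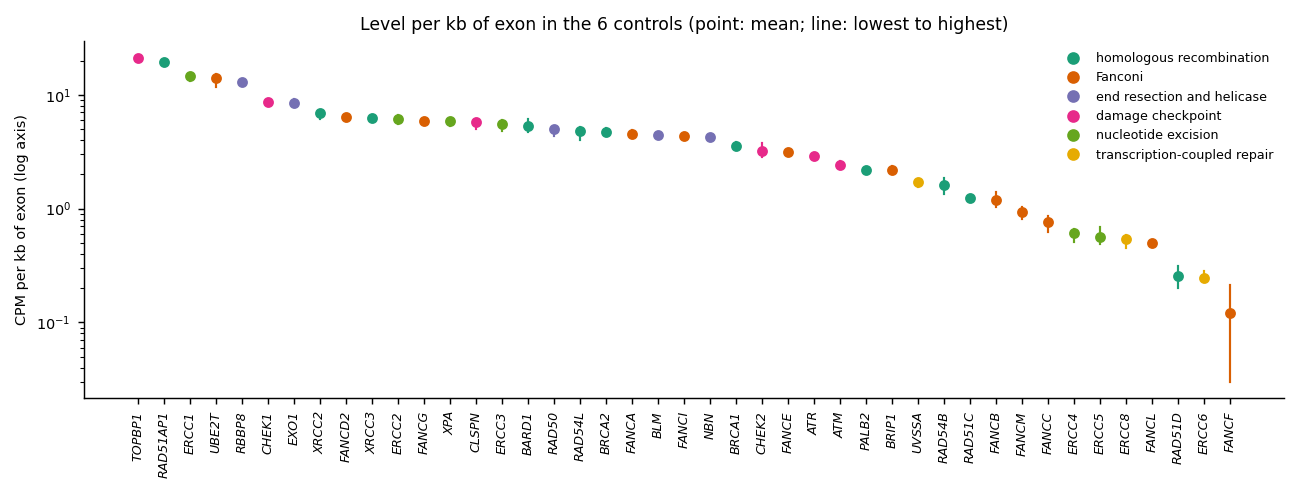
Level of the 43 members in the 6 control libraries, in TMM-scaled CPM per kb of exon on a log axis. Points are means over 6 libraries, lines run from the lowest to the highest library and colours give the repair group. TOPBP1 stood at 21.0 and FANCF at 0.121 CPM per kb.

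Each TBX group was compared with the 6 pooled controls to ask how its overexpression changed the lung cancer cells. A member was called when edgeR's quasi-likelihood test, adjusted by Benjamini-Hochberg over all 15576 genes, gave an adjusted p under 0.1. With TBX2, 13 of the 42 tested members were called lower, next to 15.6% of all genes tested, and 3 were called higher, next to 17% (2651 genes). With TBX3, 5 were lower, next to 6.40% of all genes, and 0 were higher, next to 8.47%. The count of 5 became 13 with totals less the most counted gene, where the genes lower over all 15576 also went from 997 to 1696. It became 11 with that gene's percentage as a term, 8 or 9 with GC content or exon length corrected, and 3 without TBX3 replicate a. The shares of all genes in these last fits are not given here, so their counts cannot be read as particular to the members. No member had an unadjusted p under 0.05 for a rise with TBX3, and DESeq2 also called 0 higher. With TBX4, 4 members were lower and 1 was higher, next to 6.07% and 6.97% of all genes. With TBX5, 6 were lower and 1 was higher, next to 6.12% and 6.55%. The count of 6 became 9 without TBX5 replicate a, 4 without replicate b and 3 without replicate c, with the shares of all genes in these fits not given here. The median log2 fold change of the 42 members was -0.07, -0.09, -0.04 and -0.05 for TBX2 to TBX5, against medians over all genes of -0.0013, -0.0021, -0.0058 and -0.0031. Read by replicates instead, all 3 TBX2 libraries lay below the 6 controls for 9 members, next to 11.6% of all genes, and above them for 4, next to 12.9%. With TBX3 these numbers were 6 below and 0 above, next to 6.14% and 8.38%, with TBX4 5 and 1, next to 5.74% and 6.84%, and with TBX5 8 and 2, next to 6.55% and 7.48%. These 4 comparisons share their 6 controls, so a gene that is high in the controls by chance is low in all of them.

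**Figure D2:**
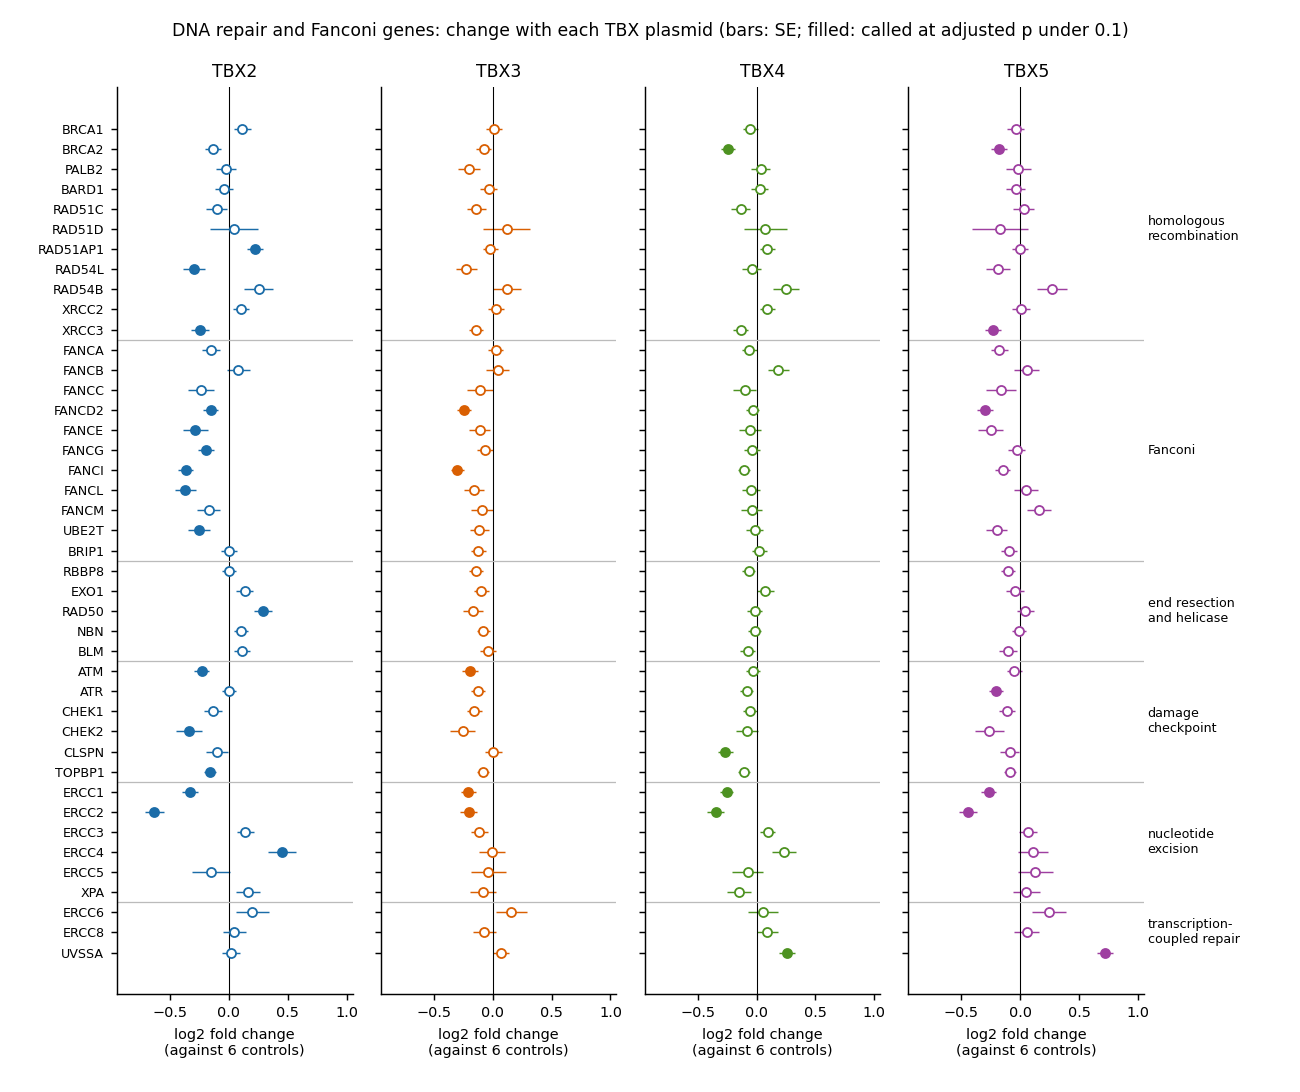
Log2 fold change of the 42 tested members with each TBX plasmid against the 6 controls. Points are edgeR estimates, bars are standard errors, filled points were called at an adjusted p under 0.1 and grey lines separate the repair groups. ERCC1 and ERCC2 are filled to the left in all 4 panels, and UVSSA is filled to the right with TBX4 and TBX5, where it reached 0.72.

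In all, 20 members were called in at least 1 TBX comparison and 22 in none. The shares of all genes called in at least 1, in 3, in 2 or in 1 comparison were not counted. TBX2 alone called 17% of all genes higher and 15.6% lower, so the 20 cannot be read as particular to these members. ERCC1 and ERCC2 were called lower in all 4, next to 1.24% of all genes, while no member was among the 1.21% called higher in all 4. FANCD2 was called in 3, and FANCI, ATM, XRCC3, BRCA2 and UVSSA in 2, while the other 12 were called once. No member was called higher in one comparison and lower in another, and the share of all genes called in opposite directions was not counted. The log2 fold change farthest from 0 among called members was -0.63 with TBX2 (ERCC2), -0.30 with TBX3 (FANCI), -0.35 with TBX4 (ERCC2) and 0.72 with TBX5 (UVSSA). The 22 members without a call ran from -0.23 to 0.27 over the 4 comparisons. They are the recombination genes BRCA1, PALB2, BARD1, RAD51C, RAD51D, RAD54B and XRCC2, the Fanconi genes FANCA, FANCB, FANCC, FANCM and BRIP1, the resection genes RBBP8, EXO1 and NBN with the helicase BLM, the checkpoint kinase gene CHEK1, and ERCC3, ERCC5, XPA, ERCC6 and ERCC8. Of the exon bases of RAD54B 66.0% are also exon of FSBP, and of those of ERCC5 33.0% are also exon of BIVM-ERCC5. The counting leaves out reads over more than 1 gene, so these members were counted on part of their exons.

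The sequences that precede the starts of 4 of these genes are shown for a reader to compare. They are the 2 genes called lower in all comparisons, UVSSA, called higher with TBX4 and TBX5, and a Fanconi gene. Each run holds the 250 bases before a RefSeq start (table build GRCh38.p14), 5′ to 3′ on the strand of the gene, and each was found once, letter for letter, in GRCh37, whose coordinates are given. Of the 3 starts listed for ERCC1 the one shown is chr19:45926787-45927036 on the minus strand. The others are chr19:45873832-45874081 on the minus strand for ERCC2, chr4:1340746-1340995 on the plus strand for UVSSA and chr3:10067871-10068120 on the plus strand for FANCD2. Capitals mark CCAAT or its complement ATTGG, the letters bound by NF-Y, and for FANCD2 the ETS letters CCGGAAGT, read here on the other strand as ACTTCCGG.
ERCC1: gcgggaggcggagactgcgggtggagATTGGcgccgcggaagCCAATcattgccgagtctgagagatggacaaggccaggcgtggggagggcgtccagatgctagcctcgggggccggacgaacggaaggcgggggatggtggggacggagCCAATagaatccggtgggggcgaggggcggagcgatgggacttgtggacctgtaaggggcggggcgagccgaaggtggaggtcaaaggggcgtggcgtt
ERCC2: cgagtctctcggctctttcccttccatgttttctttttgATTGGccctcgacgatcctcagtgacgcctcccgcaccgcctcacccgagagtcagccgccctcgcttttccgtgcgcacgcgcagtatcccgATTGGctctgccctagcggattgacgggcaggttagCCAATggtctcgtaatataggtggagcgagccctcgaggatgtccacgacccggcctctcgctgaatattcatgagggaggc
UVSSA: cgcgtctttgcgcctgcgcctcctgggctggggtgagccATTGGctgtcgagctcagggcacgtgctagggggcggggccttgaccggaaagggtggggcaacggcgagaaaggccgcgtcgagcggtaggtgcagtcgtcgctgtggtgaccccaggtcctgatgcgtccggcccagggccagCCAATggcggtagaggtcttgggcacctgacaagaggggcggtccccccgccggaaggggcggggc
FANCD2: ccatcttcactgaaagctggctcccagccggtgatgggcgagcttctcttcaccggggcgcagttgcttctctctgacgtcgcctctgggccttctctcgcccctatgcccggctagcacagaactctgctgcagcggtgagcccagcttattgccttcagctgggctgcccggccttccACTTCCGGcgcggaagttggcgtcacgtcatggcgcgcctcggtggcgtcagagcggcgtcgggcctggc

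Counted from the start, the CCAAT letters of ERCC1 begin at -224, -208 and -99, those of ERCC2 at -211, -118 and -82, and those of UVSSA at -211 and -66. Letters were searched on both strands in windows of 250 bases before to 50 after each start. The table held 35116 such windows, of which 53 belonged to 40 members, and FANCI, NBN and RAD54B had none. CCAAT stood in 23 of the members' 53 windows (43.4%), those of 19 members, and in 34.6% of all windows. The ETS letters stood in 11.3% of the members' windows, those of BRCA2, ERCC1, ERCC3, FANCD2, PALB2 and RAD50, and in 4.14% of all windows. For ERCC1 the CCAAT letters stood only in the window of the start shown, and the ETS letters only in that of another start. One of 4 E2F forms, TTTCCCGC, TTTCGCGC, TTTGCCGC or TTTGGCGC, stood in 13.2% of the members' windows, those of CLSPN, EXO1, FANCA, FANCC, FANCD2, TOPBP1 and XRCC2, and in 3.31% of all. The CHR letters TTTGAA stood in 11.3% of the members' windows and in 15.2% of all. The T-box letters AGGTGTGA were in windows of 0 members and in 0.980% of all, and the shorter core AGGTGT, which AGGTGTGA contains, was in 1.89% of the members' windows, that of ERCC5, and in 11.4% of all. These are matches of letters and show no binding.

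Both genes lowered by all 4 TBX plasmids act in nucleotide excision repair and lie 36416 bases apart on chromosome 19 of GRCh37, both on the minus strand. ERCC2 encodes XPD, the helicase of TFIIH that opens the DNA around a lesion and is also part of the transcription machinery, and it spans 45853095 to 45874176. Its level in the controls ran from 38.3 through a median of 42.5 to 45.8 CPM. With TBX2 the replicates a, b and c had 24.6, 28.3 and 29.2 CPM. All 3 lay below every control, with a change of -0.63 ± 0.08 (SE) on the log2 scale and an adjusted p of 3.73e-06 by edgeR's quasi-likelihood test. With TBX5 they had 30.8, 30.6 and 32.2 CPM, again below every control, at -0.44 ± 0.08 and an adjusted p of 0.00089. With TBX4 they had 31.3, 33.5 and 35.2 CPM, also below the controls, at -0.35 ± 0.07 and an adjusted p of 0.00188. With TBX3 they had 36.6, 38.5 and 35.6 CPM, which overlaps the lowest control, at -0.20 ± 0.07 and an adjusted p of 0.0675. This last call was lost without TBX3 replicate a (-0.20, adjusted p 0.165), TBX3 replicate c (-0.18, 0.229), Ctl replicate c (-0.18, 0.118), EV replicate a (-0.20, 0.106) or EV replicate b (-0.18, 0.127), and against the Ctl libraries alone (-0.16, 0.264). The fall with TBX2 was larger than that with TBX3, by -0.43 ± 0.09 on the log2 scale, at an adjusted p of 0.00119 by the edgeR test within 1 fit of all 18 libraries. It was also larger than that with TBX4, by -0.29 ± 0.08 at an adjusted p of 0.031, a call lost without TBX2 replicate a (-0.22, 0.183) or TBX4 replicate c (-0.25, 0.108). Between TBX2 and TBX5 the difference of -0.19 ± 0.09 was not called, at an adjusted p of 0.219.

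ERCC1, the partner that holds the XPF nuclease on its DNA substrate, spans 45910592 to 45982086. Its level in the controls ran from 74.3 through 80.7 to 86.9 CPM. The replicates a, b and c had 64.8, 68.7 and 60.2 CPM under TBX2 and 71.4, 68.8 and 71.1 under TBX3. Under TBX4 they had 69.8, 67.2 and 68.2 CPM, and under TBX5 the range was 65.3 to 70, with 67.1 between. All 12 TBX libraries lay below all 6 controls. The log2 fold changes for TBX2 to TBX5 were -0.33 ± 0.07, -0.21 ± 0.06, -0.25 ± 0.06 and -0.27 ± 0.07, at adjusted p of 0.000818, 0.0299, 0.00657 and 0.0117 by edgeR's test. The call with TBX3 was lost without TBX3 replicate b (-0.19, adjusted p 0.111), and those with TBX3 and TBX5 were lost against the Ctl libraries alone (-0.14, 0.228 and -0.20, 0.128). No pair of TBX groups differed in ERCC1 by this test, with differences of -0.12 to 0.06. Of its exon bases 28.6% are also exon of POLR1G on the other strand, and the counting at default settings does not use strand. POLR1G itself had 9.54 CPM in the controls and was called in none of the 4 comparisons.

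ERCC4 encodes XPF, the nuclease that ERCC1 holds. It had 8.03 to 10.5 CPM in the controls, with a median of 10.2, and 15, 11.1 and 14.0 CPM with TBX2. The 3 TBX2 libraries lay above every control, at 0.45 ± 0.12 and an adjusted p of 0.00684 by edgeR's test, while with the other TBX plasmids ERCC4 was not called, at -0.01 to 0.23. It was also higher with TBX2 than with TBX3, by 0.46 ± 0.14 at an adjusted p of 0.0271, a call lost without TBX2 replicate a (0.35, 0.168). ERCC3 encodes XPB, the other helicase of TFIIH. It was not called against the controls, at -0.11 to 0.14, but was lower with TBX3 than with TBX2 and TBX4. TBX3 libraries had 43.4, 43.3 and 41.8 CPM, TBX2 libraries 48.9 to 54.4, and TBX4 libraries 49.7, 50.1 and 48.6. The differences were 0.25 ± 0.07 for TBX2 against TBX3, at an adjusted p of 0.0242, and -0.21 ± 0.07 for TBX3 against TBX4, at 0.0763. The first was lost without TBX2 replicate c (0.21, 0.101), and the second without any 1 of the 6 libraries, with adjusted p up to 0.196. XPA, which checks the lesion, and ERCC5, which encodes the nuclease XPG, were called in no comparison.

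UVSSA, which recruits repair factors to a stalled RNA polymerase, was the only member called higher with TBX4 or TBX5. It lies on chromosome 4 at 1339479 to 1389777 of GRCh37, on the plus strand, and no other annotated exon overlaps its own. Its level in the controls ran from 26.4 through 28.7 to 30.7 CPM. With TBX5 the replicates a, b and c had 49.4, 45.8 and 46.5 CPM, all above every control, at 0.72 ± 0.07 on the log2 scale (1.65-fold) with an adjusted p of 4.68e-07 by edgeR's test. With TBX4 they had 31.2, 36.4 and 36.0 CPM, all above the highest control, at 0.26 ± 0.07 and an adjusted p of 0.0169. That call was lost without TBX4 replicate b (0.22, 0.115) and against the EV libraries alone (0.22, 0.101). TBX2 and TBX3 libraries had 26.9 to 31.1 CPM, with changes of 0.02 ± 0.07 and 0.07 ± 0.07 that were not called. TBX5 exceeded TBX2 by 0.70 ± 0.08, TBX3 by 0.65 ± 0.08 and TBX4 by 0.46 ± 0.08, at adjusted p of 7.03e-07, 7.42e-06 and 0.00293 by the edgeR test within 1 fit. The 2 CSB and CSA genes of the same branch, ERCC6 and ERCC8, were not called, with changes of 0.05 to 0.24 and of -0.07 to 0.09.

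**Figure D3:**
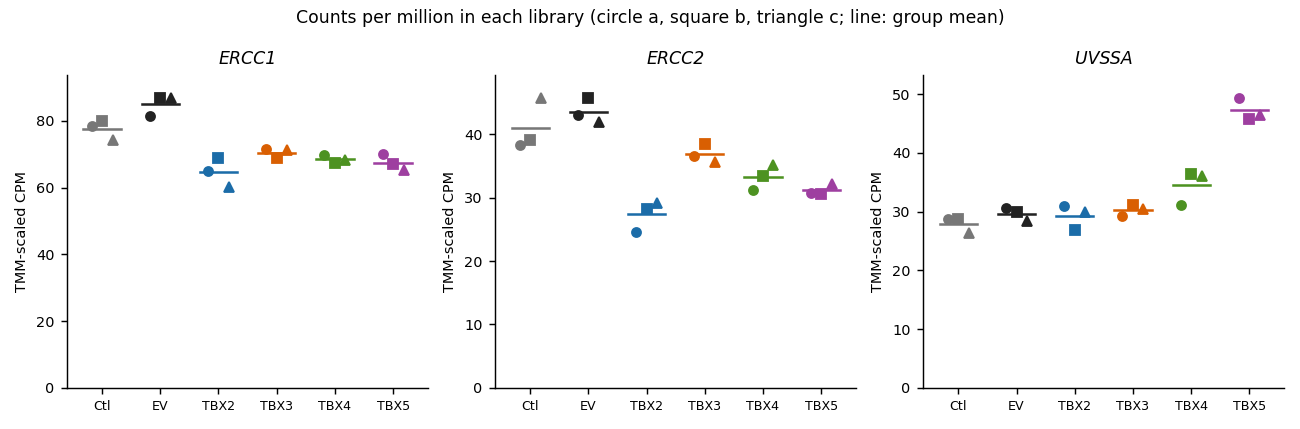
TMM-scaled CPM of ERCC1, ERCC2 and UVSSA in each of the 18 libraries, from 0. Circles, squares and triangles are replicates a, b and c, and lines are group means. The 12 TBX libraries lie below the 6 controls for ERCC1, and the 3 TBX5 libraries lie at 45.8 to 49.4 CPM for UVSSA.

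Most calls among Fanconi genes came with TBX2, where 6 of the 11 tested members were called lower and 0 higher, with a median of -0.19, next to 15.6% of all genes lower and 17% higher. No member of this group had an unadjusted p under 0.05 for a rise with TBX2, and DESeq2 called 0 higher. With TBX3 2 were lower, with TBX5 1 and with TBX4 0, next to 6.40%, 6.12% and 6.07% of all genes, and in the last case 0 had an unadjusted p under 0.05 for a fall and DESeq2 also called 0. FANCI, a subunit of the ubiquitinated pair that marks a crosslink, had 75.5 to 82.0 CPM in the controls, with a median of 78.1. With TBX2 its replicates had 64.9, 58.0 and 59.3 CPM and with TBX3 63.3, 60.2 and 66.6, all below every control, at -0.37 ± 0.06 and -0.30 ± 0.06 and adjusted p of 0.000111 and 0.00137. TBX4 libraries had 73.4, 72.5 and 73.2 CPM and TBX5 libraries 75.5, 66.1 and 69.4, at -0.11 ± 0.05 and -0.15 ± 0.06, which were not called. FANCI was lower with TBX2 than with TBX4, by -0.27 ± 0.07 at an adjusted p of 0.0116 by edgeR's test. The differences of TBX2 from TBX5, -0.22 ± 0.07, and of TBX3 from TBX4, -0.20 ± 0.07, were called at 0.0535 and 0.071, and were lost without 3 and 5 of the 6 libraries in turn, with adjusted p up to 0.263 and 0.252.

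FANCD2, the other subunit of the pair, differed between plasmids. It had 69.9 to 79.1 CPM in the controls, with a median of 75.4, and 64.8, 57.9 and 59.4 with TBX5, 65.8, 62.8 and 61.8 with TBX3 and 67.6, 64.4 and 70.9 with TBX2. The TBX5 and TBX3 libraries lay below every control, and 1 TBX2 library lay among them. The changes were -0.30 ± 0.07, -0.25 ± 0.06 and -0.15 ± 0.06, at adjusted p of 0.00509, 0.00945 and 0.0782 by edgeR's test. The call with TBX2 was lost without TBX2 replicate a or b, EV replicate a or c or Ctl replicate a or b, at -0.12 to -0.16 and adjusted p of 0.102 to 0.264. TBX4 libraries had 75.7, 72.3 and 72.9 CPM, within the controls. FANCD2 was higher with TBX4 than with TBX3, the reverse difference being -0.22 ± 0.07 at an adjusted p of 0.0492, and than with TBX5, by 0.27 ± 0.07 at 0.0962. The first was lost without 3 of the 6 libraries and the second without 5, with adjusted p up to 0.163 and 0.399.

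FANCL, the ubiquitin ligase of the core complex, was called lower with TBX2. It had 17.4 to 20 CPM in the controls, with a median of 19.1, and 14.6, 15.2 and 13.8 with TBX2. These lay below every control, at -0.37 ± 0.09 and an adjusted p of 0.00382 by edgeR's test, while the changes with the other plasmids, -0.16 to 0.05, were not called. TBX2 libraries were also lower than TBX5 libraries, by -0.42 ± 0.11 at 0.0181, and than TBX4 libraries, by -0.33 ± 0.10 at 0.0484. The first was lost without TBX5 replicate a (-0.28, 0.228), and the second without TBX2 replicate a or c or TBX4 replicate b, at adjusted p up to 0.153. The difference from TBX3, -0.21 ± 0.11, was not called (0.242). FANCM, a translocase that brings the core complex to DNA, was called against no controls but was lower with TBX2 than with TBX5, by -0.33 ± 0.12 at 0.0877, a call lost without 4 of the 6 libraries, with adjusted p up to 0.251. Of the same complex FANCE, at -0.28, and FANCG, at -0.19, were called lower with TBX2, as was UBE2T at -0.26, at adjusted p of 0.0513, 0.0473 and 0.0475. Their calls were lost without TBX2 replicate a (-0.16, -0.16 and -0.22), and those of FANCE and UBE2T also without TBX2 replicate c (-0.27 and -0.17), with adjusted p up to 0.349.

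Among the 6 checkpoint genes 3 were called lower with TBX2 and 1 with each other plasmid, next to 15.6% of all genes with TBX2 and 6.40%, 6.07% and 6.12% with TBX3, TBX4 and TBX5. TBX2 thus gave more calls over all genes too, and 1 of 6 is the smallest count above 0 that the group allows. ATM, the kinase that senses double-strand breaks, had 87.3 to 102.7 CPM in the controls, with a median of 93.6, and 78.4, 83.0 and 81.0 with TBX2. These lay below every control, at -0.23 ± 0.06 and an adjusted p of 0.0107. With TBX3 it had 77.4, 79.2 and 90.8 CPM, of which the last lay among the controls, at -0.19 ± 0.07 and an adjusted p of 0.0632 by edgeR's test. That call was lost without TBX3 replicate a or b, Ctl replicate a or EV replicate c, at -0.15 to -0.17 and adjusted p of 0.105 to 0.278. The difference between TBX2 and TBX4, -0.20 ± 0.08, was called at 0.097 and was lost without 5 of the 6 libraries. CHEK2, the kinase that ATM activates, had 12.7 to 17.1 CPM in the controls, with a median of 14.2, and 9.99, 12.1 and 12.5 with TBX2. All 3 were below the controls, at -0.34 ± 0.11 and an adjusted p of 0.026, a call lost without TBX2 replicate a (-0.24, 0.184). TOPBP1 was lower with TBX2 by -0.16 ± 0.05 at 0.034. CLSPN, the mediator of the ATR branch, had 48.4 to 59.4 CPM in the controls, with a median of 55.8, and 44.6, 47.5 and 46.7 with TBX4. These lay below every control, at -0.26 ± 0.07 and an adjusted p of 0.0113, lost against EV libraries alone (-0.19, 0.118) and, at -0.12, in a fit that took each library's percentage of ENSG00000266658 as a term. With TBX2 it had 50.5, 42.6 and 63.6 CPM, both below and above the controls. ATR, the kinase that senses stalled forks, was lower with TBX5 by -0.21 ± 0.06 at 0.0306, with 69.1, 68.3 and 69.0 CPM against 76.1 to 83.3 in the controls. That call was lost without TBX5 replicate b (-0.20, 0.103) or c (-0.21, 0.104).

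In recombination and end resection, members moved in both directions with TBX2. RAD50, the ATPase that tethers broken ends, had 45.7 to 54.5 CPM in the controls, with a median of 53.6, and 59.8, 58.4 and 75.3 with TBX2. These lay above every control, at 0.29 ± 0.08 and an adjusted p of 0.00805, lost without TBX2 replicate c (0.18, 0.104). With TBX3 it had 51.4, 52.0 and 38.8 CPM, and TBX2 exceeded TBX3 by 0.46 ± 0.10 at 0.00296 by edgeR's test. TBX2 also exceeded TBX4, by 0.30 ± 0.10 at 0.0501, a call lost without TBX2 replicate c (0.19, 0.312) and without TBX4 replicate a or b. Of its exon bases 76.9% lie in annotated exons of ENSG00000283782 on the same strand or of the antisense TH2LCRR. ENSG00000283782 is not among the genes of the count table, so the counting had no such gene to share reads with, and the overlap with TH2LCRR alone was not measured. NBN, which joins RAD50 in the MRN complex, was higher with TBX2 than with TBX3 by 0.18 ± 0.06 at 0.0507, lost without TBX2 replicate b or TBX3 replicate a or b (up to 0.22). RAD51AP1 rose with TBX2, with 54.5, 59.8 and 59.1 CPM against 45.5 to 52.4 in the controls, at 0.22 ± 0.07 and an adjusted p of 0.0146.

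RAD54L, a translocase of homologous recombination, was lower with TBX2 by -0.29 ± 0.09 at an adjusted p of 0.0238 by edgeR's test, with 15.1 to 17 CPM against 16.5 to 21.1 in the controls. XRCC3, a gene of homologous recombination, was lower with TBX2 and TBX5, at -0.24 ± 0.08 and -0.23 ± 0.07 and adjusted p of 0.0261 and 0.0368. It had 45.9 to 49.6 CPM in the controls, with a median of 46.4, then 43.8, 42.7 and 31.8 with TBX2 and 43.1, 39.9 and 37 with TBX5, all below the controls. The call with TBX2 was lost without replicate c (-0.12, 0.242), and that with TBX5 without replicate b or c (-0.22 and -0.18, up to 0.214). Of its exon bases 76.7% overlap KLC1 on the other strand. BRCA2, a central mediator of homologous recombination, was lower with TBX4 and TBX5. It had 63.1 to 74.3 CPM in the controls, with a median of 66.4, then 60.5, 55.4 and 54.8 with TBX4 and 62.9, 55.4 and 58.8 with TBX5. Both groups lay below every control, at -0.25 ± 0.06 and -0.18 ± 0.07 and adjusted p of 0.0101 and 0.0941. The call with TBX5 was lost without 7 of the 9 libraries, all but EV replicate b and TBX5 replicate a, at adjusted p up to 0.329, and in the fit with each library's percentage of ENSG00000266658 as a term. Its partners BRCA1 and PALB2 were not called in any comparison.

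**Figure D4:**
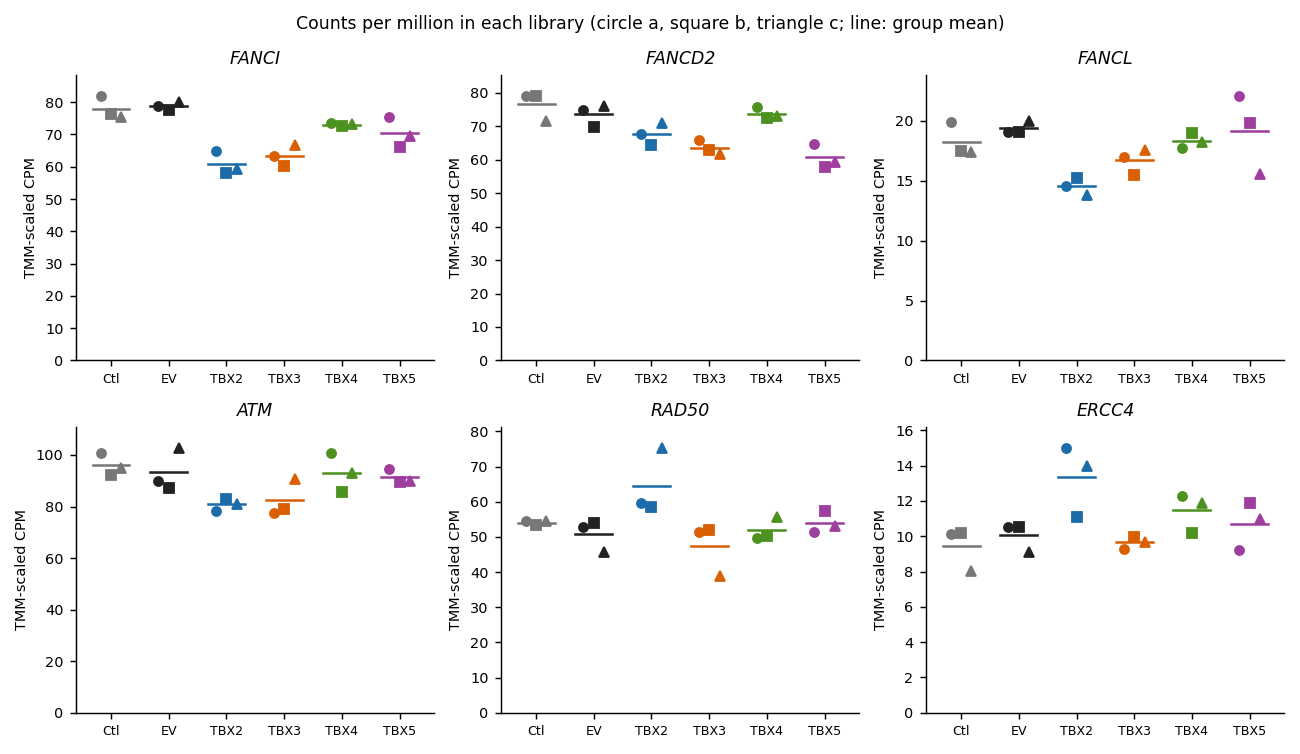
TMM-scaled CPM of FANCI, FANCD2, FANCL, ATM, RAD50 and ERCC4 in each of the 18 libraries, from 0. Circles, squares and triangles are replicates a, b and c, and lines are group means. TBX2 libraries lie lowest for FANCI, FANCL and ATM by their means and highest for RAD50 and ERCC4, and TBX5 libraries lie lowest for FANCD2.

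Proteins that work as a pair allow a comparison within a library, since the ratio of their counts does not depend on how libraries are scaled. Ratios were formed for 8 partner pairs chosen with the values of the members known, so they describe the changes above on another scale and carry no test. ERCC1 to ERCC4 had log2 ratios of 2.95 to 3.25 in the controls, with a median of 3.01, and 2.11, 2.63 and 2.11 with TBX2. The ratio lay below every control in all 12 TBX libraries, by -0.78, -0.20, -0.48 and -0.40 on average with TBX2 to TBX5. Replicate a with TBX3, 2.94, and with TBX5, 2.93, lay just under the lowest control. ERCC2 to ERCC3 had -0.31 to 0.17 in the controls, with a median of -0.16, and -0.99, -0.82 and -0.90 with TBX2. It lay below every control with TBX2, TBX4 and TBX5, by -0.78, -0.44 and -0.50, and overlapped the controls with TBX3, at -0.09.

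The log2 ratio of FANCI to FANCD2 was -0.05 to 0.15 in the controls, with a median of 0.07. It was -0.06, -0.15 and -0.26 with TBX2, below every control, by little in replicate a, and 0.22, 0.19 and 0.23 with TBX5, above every control. With TBX3 and TBX4 it overlapped the controls. BRCA2 to PALB2 lay below the controls with TBX4, by -0.28, and BRCA1 to BARD1 lay above them with TBX2, by 0.16. The ratios of FANCL to UBE2T, RAD50 to NBN and ERCC6 to ERCC8 overlapped the controls in all 4 groups, with differences of -0.09 to 0.22.

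**Figure D5:**
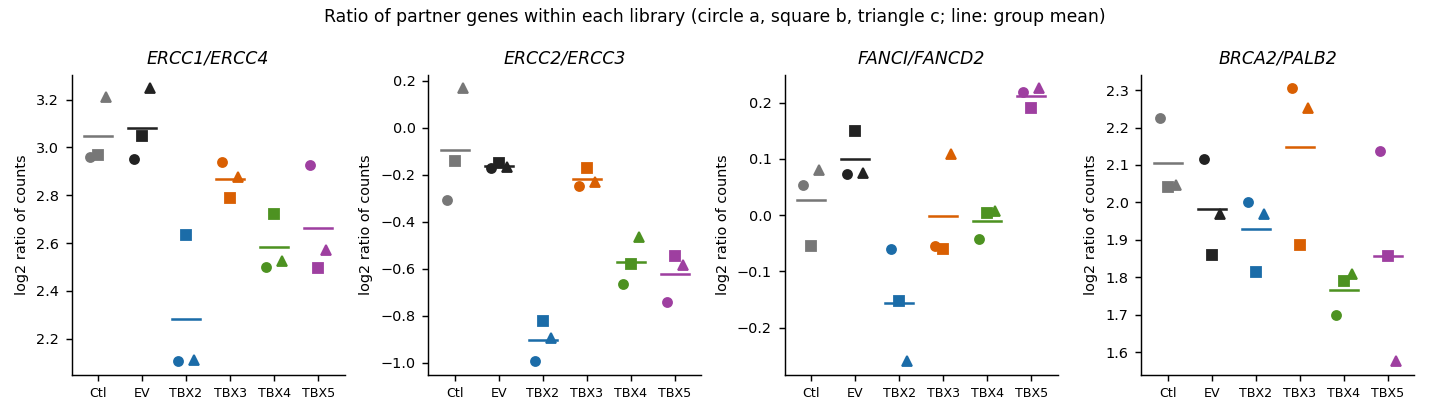
Log2 ratio of the counts of partner genes in each of the 18 libraries, for ERCC1 to ERCC4, ERCC2 to ERCC3, FANCI to FANCD2 and BRCA2 to PALB2. Circles, squares and triangles are replicates a, b and c, lines are group means and the axes do not start at 0. For FANCI to FANCD2 the TBX2 libraries lie below the controls and the TBX5 libraries, at 0.19 to 0.23, above them.

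Between TBX groups, 24 calls over the 6 pairs involved 13 members. TBX2 against TBX3 gave 5 higher and 1 lower, next to 8.01% and 7.51% of all genes, and TBX2 against TBX4 gave 1 higher and 5 lower, next to 6.66% and 5.61%. TBX2 against TBX5 gave 2 higher and 4 lower, next to 6.45% and 5.69%, and TBX3 against TBX4 gave 0 higher and 3 lower, next to 5.95% and 4.02%. In the latter 2 members had an unadjusted p under 0.05 for a higher level with TBX3, and DESeq2 called 0. TBX3 against TBX5 gave 0 higher and 1 lower, next to 4.30% and 3.11%, with 2 members higher at an unadjusted p under 0.05 and 0 called by DESeq2. TBX4 against TBX5 gave 1 higher and 1 lower, FANCD2 and UVSSA, next to 0.109% and 0.430%. Among the rest, RAD51AP1 was higher with TBX2 than with TBX3 and TBX5, by 0.24 and 0.22, and ATR was higher with TBX2 than with TBX5, by 0.21, at adjusted p of 0.0355, 0.0827 and 0.0588 by edgeR's test. UVSSA was lower with TBX2 than with TBX4, by -0.24 at 0.0571. Leaving out single libraries lost each of these 4 calls for 2 or more libraries, with adjusted p up to 0.251.

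No member was called between EV and Ctl, next to 0.385% of all genes called in either direction. By edgeR's quasi-likelihood test 5 of the 42 had an unadjusted p under 0.05, ERCC1 and ERCC3 higher in EV by 0.13 and 0.15 and BRCA1, BARD1 and CLSPN lower by -0.19, -0.20 and -0.15, and the smallest adjusted p was 0.326. DESeq2 also called 0.

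Other genes of the same pathways were called in both directions. For each list the shares over all genes, from TBX2 to TBX5 in turn, are 17%, 8.47%, 6.97% and 6.55% higher and 15.6%, 6.40%, 6.07% and 6.12% lower. Of 45 other recombination and Fanconi genes tested, 17.8%, 6.67%, 6.67% and 4.44% were higher (8, 3, 3 and 2 genes) and 4.44%, 4.44%, 4.44% and 8.89% lower (2, 2, 2 and 4), near or below those shares in most cases. Of 32 other nucleotide excision genes, a list that includes shared DNA polymerase and clamp genes, 15, 4, 6 and 6 fell with TBX2, TBX3, TBX4 and TBX5, which is 46.9%, 12.5%, 18.8% and 18.8%, while 3 rose with TBX2, 1 with TBX3 and 2 with TBX5. POLD2, a subunit of DNA polymerase delta, fell in all 4 comparisons, at -0.17 to -0.33. Of 16 end joining genes 3, 4, 1 and 1 fell, while 2 rose with TBX2 and 1 with TBX3. TDP1, which clears protein adducts from DNA ends, fell in all 4, at -0.22 to -0.51. Of 20 base excision genes 4 rose and 6 fell with TBX2, 1 and 3 with TBX3, 1 and 2 with TBX4 and 1 and 4 with TBX5. Of 7 mismatch repair genes 3, 1, 1 and 1 fell.

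Genes of the cell cycle fell beside these calls. Over all genes 15.6%, 6.40%, 6.07% and 6.12% were called lower with TBX2 to TBX5, and 17%, 8.47%, 6.97% and 6.55% higher. Of 27 S-phase genes tested 16, 6, 3 and 9 fell with TBX2, TBX3, TBX4 and TBX5, while 1 rose with TBX4 and 1 with TBX5. Of 28 G2 and M genes 20, 10, 9 and 15 fell and 1 rose, with TBX2. Their median log2 fold changes, for TBX2 to TBX5 in turn, were -0.23, -0.08, -0.07 and -0.12 for the S-phase genes and -0.21, -0.13, -0.13 and -0.17 for the G2 and M genes. CDK1, the mitotic kinase, fell in all 4, at -0.20 to -0.44. Between EV and Ctl the median of the G2 and M genes was -0.08, against 0.0013 for all genes, with 24 of 28 below 0, 7 at an unadjusted p under 0.05 and all EV libraries below Ctl for 10, though edgeR's test called 0 of them. The S-phase genes had a median of -0.0096 there. The part of the cell cycle in the members' changes was not tested.

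All log2 fold changes above are on the TMM scale. Under library totals, which give the most counted gene its full weight, the median of all genes moved to 0.25 with TBX4 and -0.31 with TBX5, and ERCC1, BRCA2 and CLSPN with TBX4 then came to 0.0021, 0.018 and 0.0061, each below that median. The split of all genes called also moved with the scale. With TBX3 it was 1319 higher and 997 lower, and 867 and 1696 when libraries were scaled by totals without the most counted gene. On that scale the splits for TBX4 and TBX5 were 898 to 1221 and 799 to 1197, against 1086 to 945 and 1021 to 954 by TMM, and all 33 calls of members were kept. Under full totals the splits were 833 to 220, 35 to 0, 2775 to 33 and 37 to 54 for TBX2 to TBX5, against 2651 to 2428 for TBX2 by TMM. On that last scale the other calls against controls kept their sign, but of them only that of ERCC2 with TBX2 and that of UVSSA with TBX4 kept an adjusted p under 0.1 by edgeR's test. Set against the Ctl or the EV libraries alone, with 3 controls in place of 6, further calls were lost: FANCE, CHEK2, RAD54L, XRCC3 and FANCD2 with TBX2 and XRCC3 and BRCA2 with TBX5 against Ctl, and FANCE, UBE2T, FANCG, FANCD2 and TOPBP1 with TBX2, ATM with TBX3 and BRCA2 and ATR with TBX5 against EV. The adjusted p of these by edgeR's test ran from 0.101 to 0.314. DESeq2 did not call FANCG with TBX2 (0.103) or BRCA2 with TBX5 (0.154). Between TBX groups it did not call FANCL, UVSSA and ATM for TBX2 against TBX4, FANCM, RAD51AP1 and ATR for TBX2 against TBX5, ERCC3 and FANCI for TBX3 against TBX4 or FANCD2 for TBX4 against TBX5, at adjusted p of 0.101 to 0.189.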

How the data were processed

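Total RNA of NCI-H1299 cells, taken by Trizol, was sequenced as paired-end reads. The authors aligned the reads with STAR 2.3.0 to GRCh37 and deposited whole-number read counts per Ensembl gene from featureCounts at default settings, which ignore strand and leave out reads over more than 1 gene. No gene was filtered out. The mouse Tbx5 transcript was counted only where its reads aligned to human TBX5.

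Symbols and exons came from GENCODE v44 mapped to GRCh37. Some genes of the pathway lists are not reported here by name. The members and lists were chosen with earlier results of these data known. Genes with over 5 counts in at least 10 of 18 libraries entered edgeR 4.0.16 (R 4.3.3) with TMM scaling and the quasi-likelihood test, adjusted by Benjamini-Hochberg over 15576 genes and called under 0.1. Each TBX group was fitted against the 6 controls by itself, and TBX pairs in 1 fit of all 18 libraries. SE is the log2 fold change divided by the square root of F. Members called in all 4 TBX comparisons, the 5 largest per comparison and the 3 largest per TBX pair were given in full, and other members named were chosen after their values were seen. DESeq2 1.42.0, other scalings and filters, GC content and exon length corrections, single control groups, a replicate block and each library left out were alternatives. On simulated counts for 3 TBX3 libraries against 6 controls, over 15576 genes, edgeR called 38.5% of genes changed by 0.5 on the log2 scale and 97.8% of those changed by 1. That simulation set the same fixed spread between replicates for all genes, not the spread of these libraries. With TBX3 the median SE of the members was 0.07, so these percentages need not hold for them. Totals were 7365221 to 11743179 counts, and the floor covers counting error only.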

Additional observations from a re-analysis of the deposited data

Results flagged for a closer look

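In the 6 controls each of the 42 tested members was checked for a library far from the others, and 2 had one, where chance gives about 1 in 20 groups. RAD50 had 45.7 CPM in EV replicate c against 52.9 to 54.5 CPM in the other 5, a gap of 0.817 of the whole range. RAD54L had 16.5 CPM in Ctl replicate c against 19.4 to 21.1 CPM in the other 5, a gap of 0.645 of the range. The calls of RAD50 and RAD54L with TBX2 by edgeR's test were kept without these control libraries.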

How the results depend on the processing

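Counts of members below are at the threshold of the report unless stated. The number of all genes called can move with the setting too, and it is given only where stated. With libraries scaled by their totals, the calls with TBX2 fell to 0 higher and 1 lower, with TBX3 to 0 lower, with TBX4 to 6 higher and 0 lower and with TBX5 to 0 higher and 0 lower. Of the TBX pairs, TBX4 against TBX5 then gave 31 calls, and over all 15576 genes 6522 were called higher and 12 lower. The other 5 pairs gave 0 calls of members, with at most 389 genes higher and at most 100 lower over all genes. On that scale the median of all genes was at 0.0082 for TBX2, -0.08 for TBX3, 0.25 for TBX4, -0.31 for TBX5 and 0.57 for TBX4 against TBX5. Signs turned for CLSPN (0.0061), BRCA2 (0.018) and ERCC1 (0.0021) with TBX4, for FANCI in TBX2 against TBX5 (0.095) and for UVSSA in TBX4 against TBX5 (0.10). Members lower with TBX3 numbered 8 with GC content corrected, 9 with GC content corrected and the replicate block, 8 with exon length corrected, 13 with totals less the most counted gene, 11 with that gene's share as a covariate and 3 at an adjusted p under 0.05. The exon length and share settings were chosen after seeing the data. Against EV alone, 8 were lower with TBX2 and 0 higher with TBX4. Against Ctl alone, 8 were lower with TBX2, 3 lower with TBX3 and 2 higher with TBX4. DESeq2 gave 3 calls for TBX2 against TBX4, 3 for TBX2 against TBX5, 1 for TBX3 against TBX4 and 1 for TBX4 against TBX5, and its size factors in edgeR 1 for the last. At an adjusted p under 0.05 those pairs gave 3, 2, 1 and 1. The cause was not tested.

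Without single libraries, members lower numbered 10 to 14 with TBX2, 3 to 6 with TBX3, 4 with TBX4 and 3 to 9 with TBX5, and higher 3 to 4 with TBX2 and 0 to 1 with TBX4. TBX pairs gave 4 to 7, 3 to 7, 3 to 5, 0 to 3, 1 to 2 and 1 to 2 calls, in the order TBX2 against TBX3, TBX4 and TBX5, TBX3 against TBX4 and TBX5, and TBX4 against TBX5. Over these fits single calls were kept 347 times and lost 94 times. Deviations of same-letter libraries correlated at -0.101 to 0.160 over 45 pairs, so no strong signal shared by a letter was seen. Low correlations cannot show whether libraries of a letter were handled together, and the labels do not say. With the replicate block, members called higher and lower were 3 and 12 with TBX2, 0 and 5 with TBX3, 1 and 4 with TBX4 and 1 and 6 with TBX5, the TBX pairs gave 6, 6, 5, 3, 1 and 2 calls and EV against Ctl 0, so that FANCD2 with TBX2 and FANCM in TBX2 against TBX5 were lost. No filter, 10 counts in every library, 1 fit of all libraries and either GC or length correction kept all 33 calls against controls. Changes of 0.5 on the log2 scale or less, the size of most calls here, may be missed in part. The simulated percentages rest on a fixed spread and do not say how many changes of members were missed.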

Other observations

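ERCC1 and ERCC2 lie in a stretch of chromosome 19 where other genes were called as well. Of the 8 tested genes within 100000 bases of ERCC1, OPA3 (-0.59, -0.28, -0.42 and -0.50 with TBX2 to TBX5), VASP (-0.56, -0.23, -0.24 and -0.32) and ERCC2 were called lower in all 4 comparisons by edgeR's test. FOSB, an immediate early gene that lies within the span of ERCC1 on the other strand, was called higher in all 4, at 3.51, 2.22, 3.33 and 2.84, from 0.84 CPM in the controls. Over all genes tested 1.24% were called lower in all 4 and 1.21% higher. Any part of position on the chromosome in these changes was not tested. PPP1R13L, between ERCC1 and ERCC2, rose with TBX2 and TBX3 by 0.30 and 0.32. Of the 3 tested genes within that distance of UVSSA, MAEA, 5544 bases away, fell by 0.46 and 0.24 with TBX2 and TBX3 on the log2 scale and rose by 0.26 with TBX5.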
